A study of Homo sapiens with 36 samples.

Results

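Aminoacyl-tRNA synthetases are the enzymes that join each amino acid to its transfer RNA. A set of 36 of these genes was followed through 12 culture conditions of A2780 ovarian cancer cells, 20 that serve the cytosol and 16 whose names end in 2 and that serve the mitochondria. The genes were listed by family membership, with earlier results of these data known, and all 36 were found among the 57820 gene identifiers of the count table. The cytosolic group held GARS1 and KARS1, each of which encodes the enzyme of both compartments, FARSA and FARSB, the subunits of the phenylalanine enzyme, EPRS1, which charges both glutamate and proline tRNAs, and TARS3, formerly TARSL2, a further threonine enzyme. The aspartate enzymes were not used here.

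Cytosolic protein synthesis and mitochondrial protein synthesis draw on separate sets of charged tRNAs, and for most amino acids each set has its own nuclear gene. When an amino acid runs short, its tRNA stays uncharged, the kinase GCN2 (gene EIF2AK4) phosphorylates the initiation factor eIF2, and translation of the transcription factor ATF4 rises; many cytosolic synthetase genes are known ATF4 targets through a DNA element called CARE. Serine and glycine are loaded by SARS1 and GARS1 in the cytosol and by SARS2 and GARS1 in the mitochondria. Several cytosolic enzymes (EPRS1, IARS1, KARS1, LARS1, MARS1, QARS1 and RARS1 in this set) assemble with scaffold proteins into the multisynthetase complex.

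Because results in deprived medium are described below by this element, the core promoters were searched for its letters TGATGNAA on both strands. RefSeq promoter windows, from 250 bases before to 50 bases after a transcript start (GRCh38.p14), were matched for 30 of the 36 genes; LARS1, VARS1, YARS1, AARS2, VARS2 and TARS3 had none. The letters stood in 7 of 16 cytosolic genes with a window (33.3% of 21 windows) and in 1 of 14 mitochondrial genes (5.6% of 18 windows), against 3.62% of all 35116 human windows. The 8 stretches below are read along the gene's own strand, and capitals mark the matched letters or their reverse complement at the end of each.
AARS1, chr16:70289686-70289743, gene on the minus strand: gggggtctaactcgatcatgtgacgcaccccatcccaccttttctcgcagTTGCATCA
CARS1, chr11:3057418-3057475, gene on the minus strand: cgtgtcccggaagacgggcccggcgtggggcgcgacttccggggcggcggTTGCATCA
GARS1, chr7:30594795-30594852, gene on the plus strand: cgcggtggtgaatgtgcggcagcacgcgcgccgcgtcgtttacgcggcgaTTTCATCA
IARS1, chr9:92293703-92293760, gene on the minus strand: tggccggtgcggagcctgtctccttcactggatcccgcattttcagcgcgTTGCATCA
MARS1, chr12:57488014-57488071, gene on the plus strand: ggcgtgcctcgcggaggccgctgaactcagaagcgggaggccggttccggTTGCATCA
NARS1, chr18:57621815-57621872, gene on the minus strand: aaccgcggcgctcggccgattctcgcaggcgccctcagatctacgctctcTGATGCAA
TARS1, chr5:33440917-33440974, gene on the plus strand: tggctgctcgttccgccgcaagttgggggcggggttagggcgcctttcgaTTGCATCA
YARS2, chr12:32756087-32756144, gene on the minus strand: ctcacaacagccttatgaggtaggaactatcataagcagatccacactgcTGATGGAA
In GARS1 the match began 33 bases before the transcript start, in IARS1 13, in MARS1 4 and in CARS1 2 bases before it. NARS1 and TARS1 carried it 15 and 3 bases after the start, and AARS1 and YARS2 carried it 187 and 197 bases before the start. For comparison, the ETS letters CCGGAAGT stood in 5 cytosolic and 3 mitochondrial genes (23.8% and 22.2% of windows, against 4.14% of all windows). SARS1, WARS1 and EPRS1 had windows without the CARE letters.

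The 3 lines were compared, each in 3 libraries per condition: A2780 wt, the parental line sensitive to platinum; A2780 cis, a derivative obtained by long exposure of wt cells to cisplatin; and cis SSP, which grew out of cis cells kept without serine and glycine. Each line was grown with or without these amino acids (-SG) and with or without carboplatin (carbo), a platinum drug that damages DNA, at a concentration the labels give as 6 M and legends of the study as micromolar. For deprivation experiments the study used a homemade RPMI with dialysed serum, made with or without these amino acids. Whether the complete-medium libraries came from the same base was not given in the labels, nor were the times of exposure. The study's methods set a default day for experiments under cell growth assays, while their RNA-seq section names no time. Each line is a single culture lineage, and by the study's figure legends its replicate libraries are technical, so that the p-values below measure the spread between libraries and may not cover that between cultures.

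Libraries held 13074937 to 20441582 counts on genes, of which the 36 genes took 0.595 to 0.898%, and the lowest count of any of them in any library was 51, in SARS2. Of the epithelial and Mullerian markers, PAX8, WT1, EPCAM and MUC16 were low or absent for a line labelled as ovarian cancer. Their highest levels over all libraries were 0.612, 1.42, 2.26 and 0.167 CPM. The keratins KRT8, KRT19 and KRT18 reached 6.45, 7.74 and 44.1 CPM (medians 1.04, 0.0675 and 14). The leukocyte marker PTPRC was at or near 0. The collagen gene COL1A1 ranged from 1.66 to 991 CPM and the fibroblast marker DCN from 0.109 to 26.9 CPM. Levels are given as CPM, counts relative to library size after TMM scaling of all 36 libraries, while each fold change comes from a fit scaled on its own libraries. A pair of cis SSP libraries stood apart from the others of their condition: library 25 (cis SSP replicate 1) and library 32 (cis SSP -SG replicate 2) differed from the other libraries of their condition by a median of 0.201 and 0.181 on the log2 scale over the 36 genes, against 0.0241 to 0.146 in the other 34. Of the 36 genes, 33 deviated in the same direction in both, FARSA, RARS1 and HARS2 upwards and EPRS1, IARS1 and LARS2 downwards among the largest. These libraries also had the lowest shares of reads on no feature of the cis SSP libraries (4.95 and 4.21%, against 5.55 to 7%), and results that rest on them are given with and without them.

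Synthetase mRNA was far more abundant for the cytosolic than for the mitochondrial enzymes. Per kilobase of the canonical transcript, mean levels over the 12 conditions had a median of 119 CPM per kb over the 20 cytosolic genes, from 2.86 for TARS3 to 222 for GARS1. The 16 mitochondrial genes had a median of 12.9 CPM per kb, from 2.37 for SARS2 to 138 for IARS2, the mitochondrial isoleucine enzyme, ahead of TARS2 at 33.6. The SARS2 level is uncertain, because 48.2% of its exon bases also belong to a second gene on the same strand. Between the highest and the lowest condition, mean CPM differed by a median of 2.12-fold in the cytosolic group and 2.17-fold in the mitochondrial group, least in KARS1 (1.35-fold) and most in TARS3 (4.16-fold). In cis -SG cells 8 of the 20 cytosolic genes reached their highest level (AARS1, GARS1, IARS1, LARS1, MARS1, NARS1, TARS1 and TARS3).

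Summed over each group, the cytosolic genes stood at 5.36 to 5.49 times the CPM of the mitochondrial genes in wt libraries and at 5.5 to 5.61 times in cis libraries. Deprived cis libraries had ratios of 9.28 to 9.45, outside the range of every other condition but cis -SG carbo (9.28 to 9.44). In these cells the cytosolic sum was 7804 to 8046 CPM, against 6417 to 6707 in cis, and the mitochondrial sum was 836 to 860.0, against 1167 to 1195. The lowest ratios were those of cis SSP cells, 3.72 to 3.92, and cis SSP -SG libraries lay at 5.32 to 5.81. In bulk RNA a smaller share of cells with a transcript and less of it per cell cannot be told apart.

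**Figure D1:**
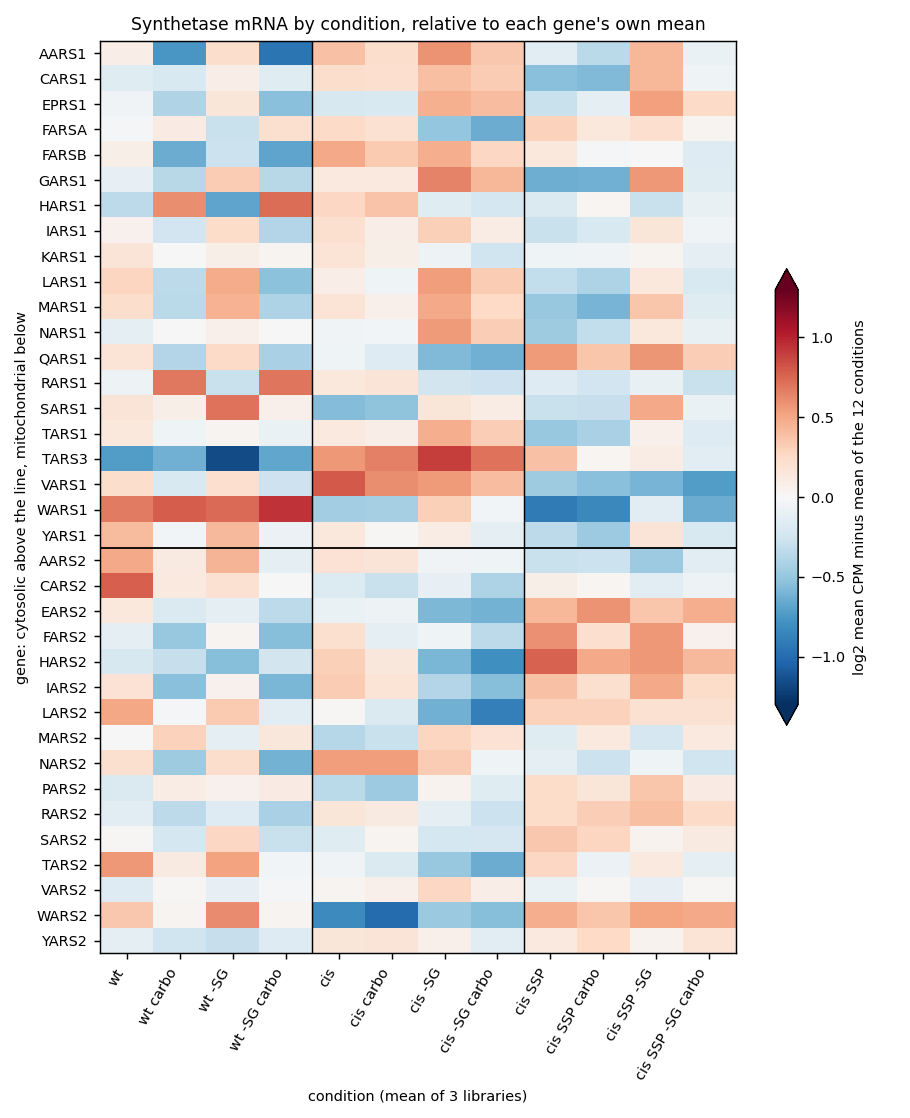
Colour gives, for each of the 36 genes (rows, cytosolic above the line and mitochondrial below), the log2 mean CPM of 3 libraries in each of the 12 conditions (columns) minus the mean of that gene over the conditions. Cytosolic genes reached their highest level most often in cis -SG, where 8 of 20 peaked, while 5 of 16 mitochondrial genes are lowest in cis -SG carbo and 5 in wt -SG carbo. No share over all genes was taken for these counts. The minima in cis -SG carbo may depend on the scale, since its fit against cis -SG placed fold changes about 0.09 above the CPM ratios.

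In wt cells, withdrawal of serine and glycine raised the cytosolic enzymes for these amino acids most. Of the 20 cytosolic genes 11 rose and 7 fell, and of the 16 mitochondrial genes 2 rose and 6 fell. In all, 26 of 36 genes passed the test, where 49.2% of the 14284 genes tested did (24.1% higher and 25.1% lower). A gene was called at an adjusted p under 0.05 in edgeR's quasi-likelihood test, fitted on all genes of the libraries compared, and each log2 fold change stands with its standard error. The median log2 fold change was 0.08 in the cytosolic and -0.031 in the mitochondrial group, beside 0.0085 over all genes.

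SARS1, the cytosolic serine enzyme (chromosome 1, 109756540 to 109780804 in GRCh37), stood at 286, 287 and 281 CPM in the wt libraries and at 420.4, 407 and 409 CPM in the wt -SG libraries. Its log2 fold change was 0.55 ± 0.024 (adjusted p = 3.14e-13), the largest rise among the 36 genes in this comparison. GARS1, the glycine enzyme of both compartments (chromosome 7, 30620149 to 30673649), went from 477, 493 and 473 to 659, 656 and 636 CPM, by 0.45 ± 0.023 (adjusted p = 2.42e-12). CARS1, which charges cysteine tRNA, came next, from 147, 149 and 145 to 178, 174 and 171 CPM (0.26 ± 0.029, adjusted p = 2.9e-07). For these genes no library of one group overlapped the other. SARS2, the mitochondrial serine enzyme, was at 4.7, 4.22 and 4.77 CPM in wt and 5.55, 5.16 and 5.59 in wt -SG. Its log2 fold change was 0.26 ± 0.12 (adjusted p = 0.0822), and it did not pass the test at 51 to 114 counts a library. Of its exon bases 48.2% also belong to a second gene on the same strand, which had no counts. How reads on the shared bases were counted was not given.

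Downwards in wt -SG, TARS3 had the largest change of the cytosolic group, from 5.48, 5.1 and 5.87 to 3.93, 3.95 and 4.31 CPM (-0.43 ± 0.13, adjusted p = 0.0074). FARSB, the beta subunit of the phenylalanine enzyme, fell by 0.34 on the log2 scale, from 87, 87.6 and 84.1 to 70.4, 66.4 and 65.9 CPM, and the histidine enzyme HARS1 by 0.33, from 105, 101 and 100.2 to 81.4, 79.4 and 80.7. Among mitochondrial enzymes CARS2, for cysteine, fell from 55.3, 57.5 and 58.4 to 36.5, 38.9 and 39.1 CPM (-0.57 ± 0.045, adjusted p = 2.1e-09), in the opposite direction to CARS1. HARS2 and EARS2, for histidine and glutamate, had log2 fold changes of -0.33 ± 0.06 (adjusted p = 9.78e-05) and -0.25 ± 0.037 (adjusted p = 8.4e-06). The mitochondrial genes that rose were WARS2, for tryptophan (18.9, 18.9 and 19.8 CPM against 23.5, 23.1 and 22.4; 0.28 ± 0.062, adjusted p = 0.000933), and PARS2, for proline (0.27 ± 0.089, adjusted p = 0.0175, called in 3 of 6 fits that left out 1 library). KARS1, the lysine enzyme of both compartments, moved little (-0.084 ± 0.026, adjusted p = 0.0102).

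In cis cells the same withdrawal set the compartments further apart. There 12 cytosolic genes rose and 6 fell, while 4 mitochondrial genes rose and 9 fell, so that 31 of 36 passed the test, beside 75.0% of 14122 genes (37.6% higher, 37.4% lower). The median log2 fold change was 0.22 in the cytosolic and -0.20 in the mitochondrial group, and 0.012 over all genes.

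WARS1, the tryptophan enzyme and a known interferon target, rose most, from 226, 229 and 236 to 380.3, 402 and 390.3 CPM (0.79 ± 0.029, adjusted p = 5.33e-28). SARS1 went from 167, 174 and 172 to 280.4, 285 and 282 CPM (0.75 ± 0.029, adjusted p = 1.12e-26), which brought the deprived cis libraries to the level of wt libraries in complete medium. EPRS1, for glutamate and proline, was at 644, 630.5 and 654 CPM in cis and 1003, 1047 and 1006 CPM in cis -SG (0.69 ± 0.027, adjusted p = 7.48e-27). All 3 deprived libraries were above all 3 others for each of these genes. GARS1 rose from 574, 552 and 577 to 805, 826 and 803 CPM (0.54 ± 0.027, adjusted p = 7.85e-23), and TARS3, which had fallen in wt, rose from 14.2, 12.7 and 13.3 to 16.5, 18 and 16.1 (0.37 ± 0.078, adjusted p = 5.38e-05). Not every cytosolic gene rose. FARSA, the alpha subunit of the phenylalanine enzyme, fell from 151, 152 and 157 to 87, 93.9 and 90.8 CPM (-0.73 ± 0.035, adjusted p = 1.52e-23), while its partner subunit FARSB did not pass the test (0.011). The glutamine enzyme QARS1 fell from 188, 197 and 199 to 132, 137 and 139.6 (-0.49 ± 0.032, adjusted p = 2.86e-18) and HARS1 from 152, 154 and 164 to 111, 115 and 122 (-0.41 ± 0.036, adjusted p = 1.74e-13).

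The mitochondrial histidine enzyme HARS2 had the steepest fall in deprived cis cells, from 48.2, 44.5 and 49.4 to 25.3, 25.5 and 25.2 CPM (-0.88 ± 0.055, adjusted p = 3.8e-19). IARS2, the most abundant gene of its group, fell from 596, 582 and 598 to 368, 366 and 351 CPM (-0.68 ± 0.028, adjusted p = 2.57e-26), and LARS2, for leucine, from 91.1, 93.1 and 96.2 to 59, 62.2 and 58.9 (-0.61 ± 0.04, adjusted p = 1.98e-18). IARS2 made up the largest part of the drop in the mitochondrial sum. MARS2, the mitochondrial methionine enzyme, went the other way, from 15.8, 14.9 and 14.9 to 23.7, 23 and 25.2 CPM (0.69 ± 0.07, adjusted p = 4.91e-12), as did PARS2 (10.6, 8.87 and 8.91 to 12.3, 12.9 and 12.2; 0.43 ± 0.091, adjusted p = 4.59e-05) and WARS2 (8.12, 8.77 and 8.68 to 10.2, 11.4 and 10.8; 0.36 ± 0.094, adjusted p = 0.000674). SARS2 showed overlapping libraries, 4.09, 4.11 and 3.95 CPM in cis and 3.68, 4.27 and 3.57 in cis -SG (-0.052 ± 0.14, adjusted p = 0.752). KARS1, which serves both compartments, fell (-0.22 ± 0.03, adjusted p = 1.49e-08). Over the same libraries the keratin markers KRT8 and KRT18 had log2 fold changes of 1.67 and 1.34, and their part in these results was not tested.

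**Figure D2:**
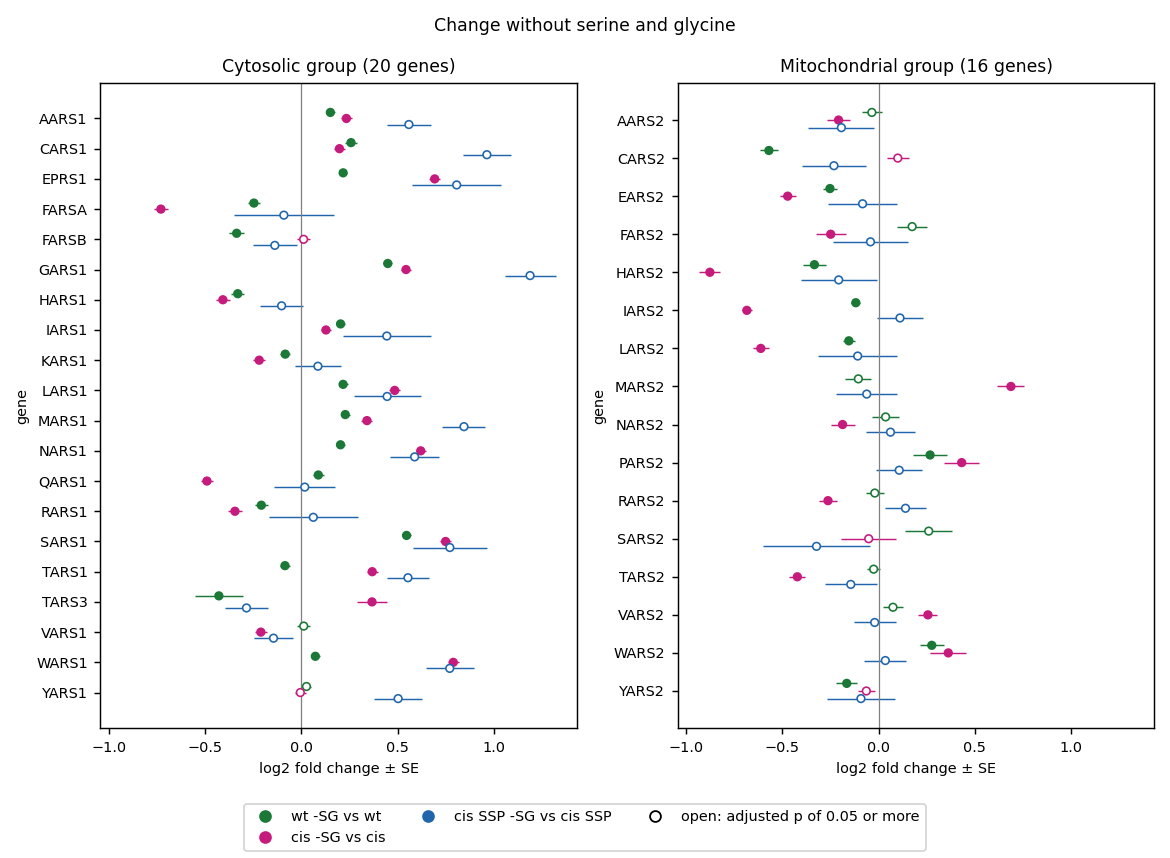
Points give the log2 fold change without serine and glycine of each gene (left, 20 cytosolic; right, 16 mitochondrial) in wt, cis and cis SSP cells, with bars for the SE of the fit and open points for an adjusted p of 0.05 or more. In cis cells SARS1, WARS1 and EPRS1 lie furthest right and HARS2 and FARSA furthest left, and all cis SSP points are open.

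Whether the response differed between cis and wt was tested as an interaction. It passed for 26 of 36 genes, beside 54.0% of 15418 genes (27.1% higher and 26.9% lower), with 11 cytosolic genes changing more upwards and 5 more downwards in cis, and 3 and 7 mitochondrial genes. WARS1 had a difference of 0.73 ± 0.037 (adjusted p = 2.49e-19), EPRS1 of 0.49 ± 0.034 (adjusted p = 3.68e-15) and TARS3 of 0.81 ± 0.15 (adjusted p = 1.04e-05). For SARS1 the difference was 0.22 ± 0.037 (adjusted p = 3.37e-06) and for GARS1 0.11 ± 0.034 (adjusted p = 0.0056), both smaller than the change in either line. FARSA fell further in cis than in wt (-0.47 ± 0.046, adjusted p = 4.91e-11). QARS1, which fell in cis, had risen in wt, by 0.087, and the difference was -0.56 ± 0.043 (adjusted p = 5.61e-14). Among mitochondrial genes IARS2, HARS2 and LARS2 fell further in cis (differences of -0.55, -0.53 and -0.44), and MARS2 and CARS2 moved upwards by 0.81 and 0.69 relative to wt. The comparisons in wt and in cis share no libraries.

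In cis SSP cells no gene of the 36 passed edgeR's test on all libraries, where 0.0218% of 13736 genes did (0.0218% higher and 0% lower). At an unadjusted p under 0.05 there were 11 cytosolic genes higher and 1 lower and no mitochondrial gene. No share over all genes was taken at that threshold. DESeq2 called 7 of the 36, beside 0.723% of 14529 genes. The fold changes were still large. GARS1 stood at 364, 315 and 324 CPM in cis SSP and 739, 838 and 722 CPM in cis SSP -SG (1.19 ± 0.13, adjusted p = 0.106), and SARS1 at 252, 182 and 188 and 322, 425 and 321 (0.77 ± 0.19, adjusted p = 0.435). In neither gene did the groups overlap, and libraries 25 and 32 were the highest of their condition in both. SARS2 overlapped, at 6.65, 5.39 and 5.27 and 4.79, 6.16 and 3.01 CPM (-0.32 ± 0.28, adjusted p = 1), as did KARS1 (0.085 ± 0.12, adjusted p = 1), and TARS3 was at 12.5, 11.4 and 11.4 and 9.79, 10 and 9.36 (-0.29 ± 0.11, adjusted p = 0.718).

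Leaving out either library 25 or library 32 gave no call among the 36, where 0% of 14087 and 0% of 14097 genes passed. Without both, which leaves 2 libraries a group, 12 cytosolic genes rose and 3 fell, and 1 mitochondrial gene rose and 3 fell, 19 of 36 beside 35.9% of 13925 genes. The cytosolic median was 0.48 and the mitochondrial median -0.073. Leaving out the libraries that deviated from their condition narrows the spread, so the p-values of this fit may be too small. In this fit GARS1 had a log2 fold change of 1.19 ± 0.027 (adjusted p = 4.36e-23), CARS1 of 0.98 ± 0.037 (adjusted p = 3.25e-18), EPRS1 of 0.81 ± 0.026 (adjusted p = 6.32e-20) and SARS1 of 0.79 ± 0.031 (adjusted p = 8.46e-18). With all libraries the medians were 0.47 and -0.073, beside -0.0035 over all genes. The interaction of deprivation between cis SSP and cis, which shares the same libraries, passed for 8 genes (17.1% of 14806 genes, 6.86% higher and 10.3% lower) with all libraries and for 26 without those libraries (55.4% of 15057 genes, 28.8% higher and 26.6% lower). On total counts without TMM, which moved the median of all genes by -0.11 on the log2 scale, 5 of the 36 were called upwards and 4 downwards, beside 6 and 2 with TMM. No share over all genes is given for the fit without TMM. With all libraries, CARS1 (0.78 ± 0.13, adjusted p = 0.00301), GARS1 (0.66 ± 0.14, adjusted p = 0.00869) and IARS2 (0.81 ± 0.12, adjusted p = 0.00149) were changed more upwards in cis SSP, and MARS2 (-0.74 ± 0.15, adjusted p = 0.00757) and TARS3 (-0.64 ± 0.13, adjusted p = 0.00671) more downwards. IARS2, which fell in cis, was at 641, 599.9 and 589 CPM in cis SSP and 645, 708 and 635 in cis SSP -SG, where the lowest deprived library was above 2 of the 3 others. For SARS1 the difference between the lines was 0.033 ± 0.22 (adjusted p = 0.947).

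**Figure D3:**
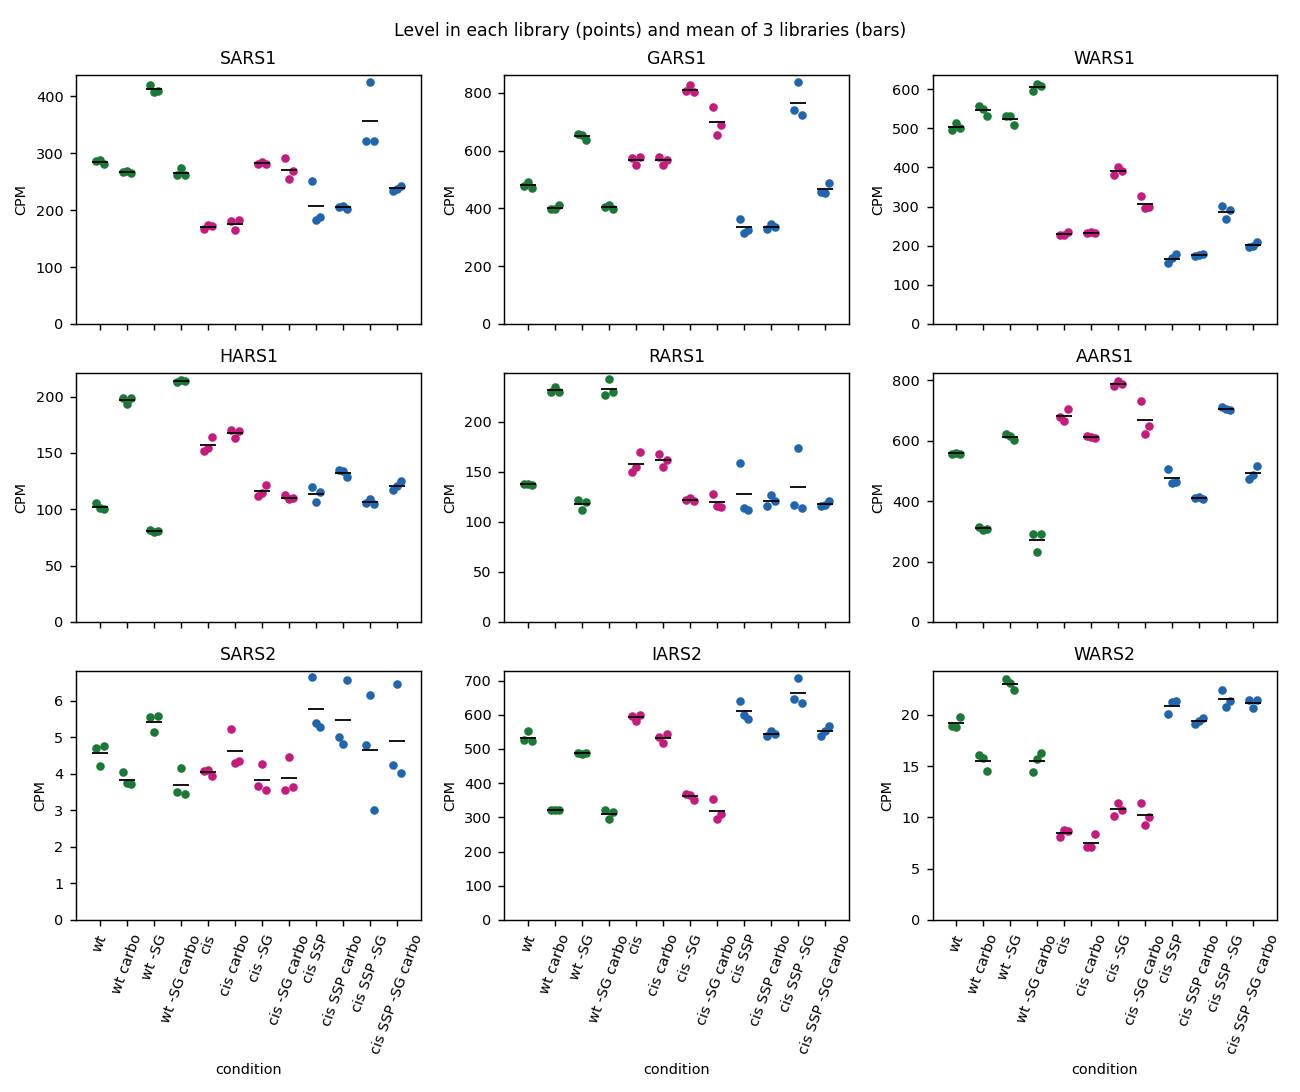
Points are the CPM in each of the 36 libraries by condition, bars the mean of 3, and colours the wt, cis and cis SSP lines, for 6 cytosolic and 3 mitochondrial genes on axes that start at 0. SARS1 and GARS1 are higher in every deprived library of all 3 lines without carboplatin, HARS1 and RARS1 are high in the carboplatin-treated wt libraries, and WARS2 is low in all cis libraries.

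Of the 7 cytosolic genes that carried the CARE letters printed above, 6 rose and 1 fell in deprived wt cells and 7 rose in deprived cis cells, with median log2 fold changes of 0.20 and 0.34. TARS1, for threonine, was the one that fell in wt. The 9 cytosolic genes with a window but without these letters had 4 rising and 5 falling in wt (median -0.084) and 3 rising and 5 falling in cis (median -0.22). SARS1, WARS1 and EPRS1, which rose most in cis, are among these 9. In cis SSP without libraries 25 and 32, the 7 genes all rose (median 0.60), and of the 9 genes 3 rose and 2 fell (median 0.036). Over all genes tested, 49.2% were called in wt, 75.0% in cis and 35.9% in cis SSP without those libraries. The split was made with these fold changes known and was not tested.

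Genes around the synthetases were read from lists, beside a background over all genes of 24.1% higher and 25.1% lower in deprived wt cells and 37.6% higher and 37.4% lower in deprived cis cells. Of 16 known ATF4 targets outside the family, 13 rose and 1 fell in deprived wt cells (median 0.40) and 14 rose in deprived cis cells (median 1.25). In cis the largest were ATF3 (3.13), ATF5 (2.37) and DDIT4 (2.35), all stress-response genes. ATF4 mRNA itself was at 427 ± 6.3 CPM (SD, n = 3) in cis and 529 ± 8.03 in cis -SG (0.34 ± 0.027, adjusted p = 1.81e-15). Among 11 mitochondrial factors for tRNA charging and translation, 8 fell and 2 rose in cis -SG (median -0.28), led by QRSL1 (-0.44), a subunit of the enzyme that makes mitochondrial glutaminyl-tRNA, MTIF2 (-0.39) and the elongation factor TUFM (-0.36). All 3 called genes of the 4 cytosolic elongation factors tested rose in cis -SG (EEF1B2 1.01, EEF1A1 0.58 and EEF2 0.19), as did 6 of 7 tested genes of tRNA supply and proofreading, DTD1, PSTK and SEPSECS most (1.36, 0.94 and 0.78). In deprived wt cells these 3 lists had 1, 3 and 2 genes rising and 4, 1 and 2 falling. Of the sensors of uncharged tRNA, EIF2AK4 fell in cis -SG (-0.34). The scaffold genes of the complex moved little there, AIMP1 by -0.11, EEF1E1 by 0.21 and AIMP2 by 0.0064, of which AIMP2 did not pass the test.

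Carboplatin lowered most synthetase genes in wt cells and raised a few. In complete medium 5 cytosolic genes rose and 13 fell, and 3 mitochondrial genes rose and 11 fell, 32 of 36 beside 77.8% of 14639 genes (38.9% higher and 39.0% lower). The medians were -0.21 for the cytosolic and -0.30 for the mitochondrial group, and -0.00074 over all genes.

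HARS1 rose most, from 105, 101 and 100.2 CPM in wt to 199, 194 and 199 in wt carbo (0.97 ± 0.027, adjusted p = 2.53e-167). The arginine enzyme RARS1 went from 137, 138 and 137 to 229, 235 and 229.8 CPM (0.77 ± 0.025, adjusted p = 2.55e-137), and FARSA followed with 0.15 ± 0.028 (adjusted p = 1.06e-07). Both HARS1 and RARS1 had fallen in deprived wt cells. The alanine enzyme AARS1 fell from 558, 559 and 556 to 313, 306 and 309 CPM (-0.83 ± 0.019, adjusted p = 2.46e-208), FARSB from 87, 87.6 and 84.1 to 49.3, 53.2 and 55.3 (-0.70 ± 0.038, adjusted p = 1.89e-63) and LARS1 from 349, 358 and 349.8 to 232, 228 and 230.0 (-0.60 ± 0.021, adjusted p = 7.02e-120). The subunits FARSA and FARSB of one enzyme thus changed in opposite directions. IARS2 led the mitochondrial falls, from 525, 552 and 523 to 320.4, 321 and 322 CPM (-0.71 ± 0.019, adjusted p = 6.81e-173), with NARS2, for asparagine (-0.64 ± 0.072, adjusted p = 8.65e-18), and CARS2 (-0.62 ± 0.045, adjusted p = 4.71e-39). MARS2, PARS2 and VARS2, the last for valine, rose by 0.32, 0.29 and 0.21. VARS2 shares 63.0% of its exon bases with a noncoding RNA gene that was not in the count table, and HARS1 and HARS2 are neighbours that share 108 exon bases on opposite strands.

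In cis cells the changes with carboplatin were small. A total of 12 of 36 passed the test, beside 20.1% of 13458 genes (9.27% higher and 10.8% lower), 1 cytosolic gene up and 7 down and 4 mitochondrial genes down. VARS1, for valine, fell from 185, 182 and 182 to 160.4, 162 and 160.0 CPM (-0.16 ± 0.03, adjusted p = 0.000265), and AARS1 from 679.6, 664 and 707 to 616, 612 and 609.6 (-0.13 ± 0.026, adjusted p = 0.000548). HARS1 was the gene called higher, at 152, 154 and 164 CPM in cis and 169.9, 163 and 169.7 in cis carbo (0.12 ± 0.032, adjusted p = 0.00644), and its libraries overlapped. LARS2 (-0.18 ± 0.037, adjusted p = 0.000753), IARS2 (-0.13 ± 0.026, adjusted p = 0.00054) and FARS2, for phenylalanine (-0.30 ± 0.083, adjusted p = 0.0103), were the mitochondrial genes with the largest falls among those called. Fitted together with all 36 libraries, none of the 12 passed, and leaving out single libraries gave 6 (without cis carbo replicate 3) to 13 called genes. No share over all genes is given for these fits, which only describe stability.

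The difference between the lines was itself tested. The interaction of carboplatin with line passed for 28 of 36 genes, beside 57.6% of 15300 genes (30.3% higher and 27.2% lower). HARS1 rose less in cis than in wt, with a difference of -0.84 ± 0.042 (adjusted p = 1.21e-25) on the log2 scale, and RARS1, which was not called in cis, had a difference of -0.71 ± 0.044 (adjusted p = 5.21e-20). AARS1 (0.71 ± 0.032, adjusted p = 8.79e-28), FARSB (0.59 ± 0.054, adjusted p = 3.05e-14) and LARS1 (0.49 ± 0.034, adjusted p = 1.29e-19) fell less in cis, as did IARS2 among mitochondrial genes (0.59 ± 0.033, adjusted p = 9.5e-24). NARS2 and CARS2, which fell in wt, were not called in cis (log2 fold changes of 0.027 and -0.082), and differed between the lines by 0.67 ± 0.097 (adjusted p = 2.16e-08) and 0.55 ± 0.074 (adjusted p = 3.17e-09). In counts, 12 cytosolic and 10 mitochondrial genes were more upwards in cis and 5 and 1 more downwards.

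**Figure D4:**
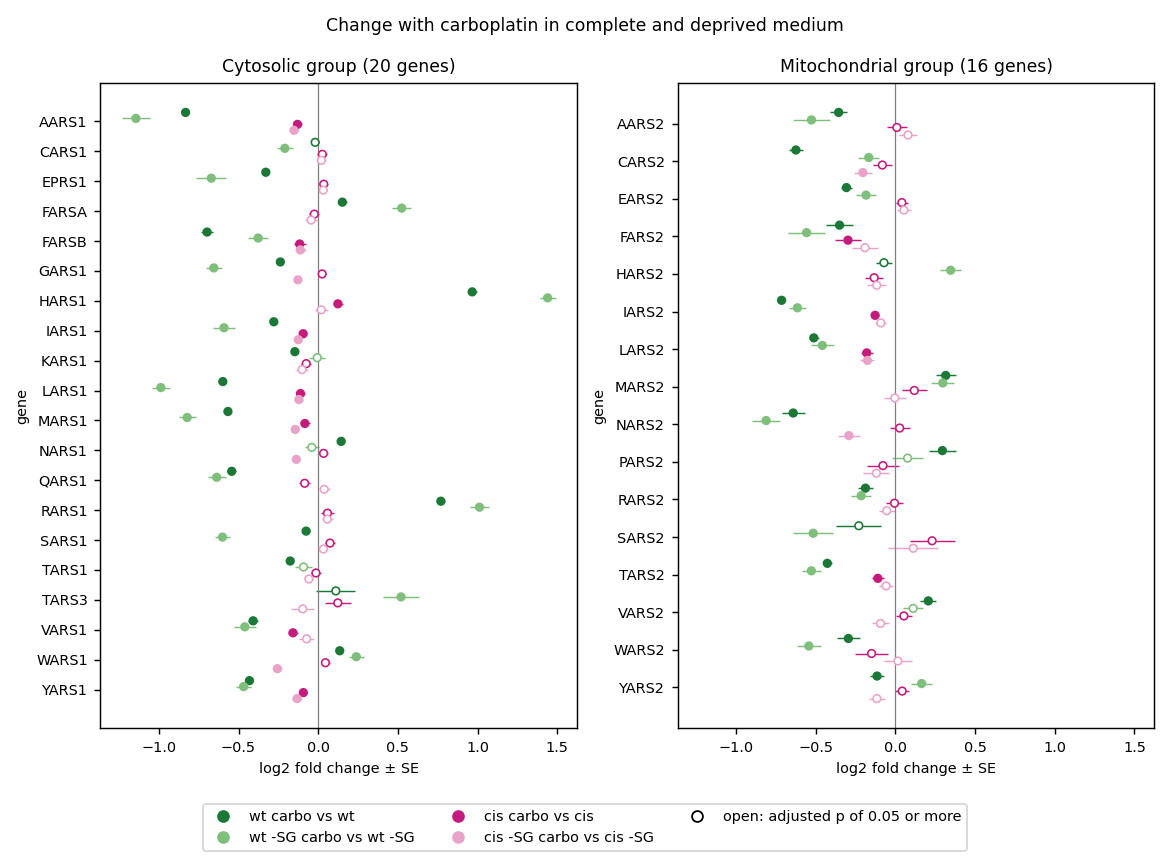
Points give the log2 fold change with carboplatin of each gene in wt and cis cells, in complete medium and without serine and glycine, with bars for the SE and open points for an adjusted p of 0.05 or more. In wt cells HARS1 and RARS1 lie furthest right and AARS1 furthest left in both media, whereas the cis points lie closer to 0.

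Without serine and glycine, carboplatin acted on wt cells with the larger sizes for several genes. In wt -SG carbo 5 cytosolic genes rose and 12 fell relative to wt -SG, and 3 mitochondrial genes rose and 11 fell, 31 of 36 beside 68.9% of 14467 genes (34.3% higher and 34.6% lower). HARS1 went from 81.4, 79.4 and 80.7 to 213, 215 and 214 CPM (1.44 ± 0.05, adjusted p = 1.54e-08), its widest change in any comparison, and RARS1 from 121, 112 and 119.9 to 226, 242 and 229 (1.01 ± 0.057, adjusted p = 3.25e-07). FARSA rose by 0.52 ± 0.058 (adjusted p = 3.13e-05). AARS1 fell from 624, 616 and 601 to 291, 233 and 292 CPM (-1.14 ± 0.086, adjusted p = 2.22e-06), where wt -SG carbo replicate 2 was the lowest library, followed by LARS1 (-0.99 ± 0.058, adjusted p = 4.43e-07) and the methionine enzyme MARS1 (-0.82 ± 0.053, adjusted p = 7.74e-07). SARS1 went from 420.4, 407 and 409 to 262, 274 and 263 CPM (-0.60 ± 0.05, adjusted p = 4.23e-06) and GARS1 from 659, 656 and 636 to 405, 411 and 397 (-0.66 ± 0.048, adjusted p = 1.94e-06), so that with the drug their deprived libraries lay near the levels of wt carbo (267, 269 and 266 and 397, 399 and 413 CPM). NARS2, IARS2 and FARS2 had the largest mitochondrial falls (-0.81, -0.62 and -0.56) and HARS2 the largest rise (0.35 ± 0.065, adjusted p = 0.00106). MARS1 overlaps DDIT3 and ARHGAP9 on the opposite strand, and the strand setting of the counting was not given.

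The effect of carboplatin differed between the media in 16 of 36 genes in wt cells, beside 27.7% of 15247 genes (14.6% higher and 13.1% lower). SARS1 (-0.53 ± 0.05, adjusted p = 1.62e-06), GARS1 (-0.42 ± 0.05, adjusted p = 1.37e-05) and LARS1 (-0.40 ± 0.058, adjusted p = 0.000104) fell more in deprived medium, and HARS1 (0.47 ± 0.053, adjusted p = 9.78e-06), FARSA (0.37 ± 0.063, adjusted p = 0.000416), CARS2 (0.45 ± 0.076, adjusted p = 0.000346) and HARS2 (0.41 ± 0.092, adjusted p = 0.00301) were changed more upwards there. This test and the deprivation comparison in wt share the wt and wt -SG libraries.

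In deprived cis cells carboplatin lowered 12 of 36 genes, 9 cytosolic and 3 mitochondrial, beside 22.5% of 14476 genes called in either direction (10.9% higher and 11.6% lower). WARS1, raised by deprivation, fell from 380.3, 402 and 390.3 to 327, 296 and 299 CPM (-0.26 ± 0.028, adjusted p = 4.87e-05), AARS1 from 781, 798 and 788 to 732, 624 and 647 (-0.15 ± 0.029, adjusted p = 0.00217) and MARS1 from 574, 587 and 592 to 528, 479.8 and 483 (-0.14 ± 0.026, adjusted p = 0.0017). NARS2 fell from 21.5, 24.4 and 23.5 to 18.2, 16.9 and 18 (-0.29 ± 0.068, adjusted p = 0.00803), and CARS2 and LARS2 had log2 fold changes of -0.20 ± 0.055 (adjusted p = 0.0173) and -0.18 ± 0.043 (adjusted p = 0.0111). Libraries 23 and 24 (replicates 2 and 3 of cis -SG carbo) were below replicate 1 in all 12 of these genes. In CPM the same held for every other gene of the 36 but MARS2, SARS2 and VARS2, so it does not mark the called genes. Libraries 23 and 24 also had 17.9 and 14.9% of reads on no feature, against at most 9.31% in the other libraries. Without both, where the lone treated library is assumed to vary like the cis -SG libraries, 9 cytosolic genes and 1 mitochondrial gene were lower, beside 14.5% of 14974 genes (7.61% higher and 6.91% lower), and CARS2 and LARS2 lost their calls. The scale matters here, since the fit on these 6 libraries placed every fold change about 0.09 above the ratio of the printed CPM. A fit over all 36 libraries called 4 genes, with no share over all genes given beside it. SARS1 in cis -SG carbo, at 291, 255 and 268 CPM, overlapped cis -SG (0.032 ± 0.028, adjusted p = 0.455). The effect of carboplatin differed between the media in 4 genes (12.1% of 14797 genes, 5.91% higher and 6.17% lower): WARS1 (-0.30 ± 0.04, adjusted p = 1.42e-05), NARS1 (-0.17 ± 0.039, adjusted p = 0.00498), GARS1 (-0.15 ± 0.039, adjusted p = 0.0123) and NARS2 (-0.31 ± 0.091, adjusted p = 0.0219), each more downwards in deprived medium. On total counts without TMM 1 gene was called upwards and 4 downwards, with no share over all genes given for that fit.

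In cis SSP cells in complete medium edgeR called none of the 36 genes with carboplatin, beside 2.72% of 13885 genes (1.97% higher and 0.749% lower). Of the 36, 3 had an unadjusted p under 0.05, for which no share over all genes was taken. DESeq2 called 0, beside 4.39% of 16480 genes. Without library 25, 19 passed (41.2% of 14170 genes, 21.9% higher and 19.2% lower), among them AARS1 (-0.17 ± 0.022, adjusted p = 3.31e-07), HARS1 (0.25 ± 0.036, adjusted p = 2.02e-06) and TARS3 (-0.31 ± 0.098, adjusted p = 0.0131). Leaving out a deviating library narrows the spread here too, and these p-values may be too small. The levels of AARS1 were 506, 461 and 464 CPM in cis SSP and 411, 415 and 406 in cis SSP carbo, and those of TARS3 12.5, 11.4 and 11.4 and 9.52, 9.15 and 9.04, with no overlap in either gene. In deprived cis SSP cells carboplatin lowered GARS1, from 739, 838 and 722 to 456, 455 and 487 CPM (-0.72 ± 0.11, adjusted p = 0.0374), the only gene of the 36 called there, beside 1.47% of 13541 genes (1.17% higher and 0.295% lower), and it kept its call in 1 of 6 fits that left out 1 library. Without library 32 the count was 23 (41.1% of 13833 genes, 21.1% higher and 19.9% lower), with SARS1 at -0.41 ± 0.028 (adjusted p = 4.36e-10), CARS1 at -0.41 ± 0.033 (adjusted p = 4.59e-09) and AARS1 at -0.50 ± 0.027 (adjusted p = 1.17e-11). The p-values of this fit may be too small for the same reason.

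The lines differed in complete medium without treatment. Relative to wt, cis cells had 10 cytosolic genes higher and 7 lower and 7 mitochondrial genes higher and 7 lower, 31 of 36 beside 78.5% of 14431 genes (39.4% higher and 39.1% lower). The medians were 0.085 and -0.20, and -0.0041 over all genes. Both tryptophan enzymes were lower. WARS1 was at 495, 514 and 501 CPM in wt and 226, 229 and 236 in cis (-1.16 ± 0.024, adjusted p = 1.5e-37), and WARS2 at 18.9, 18.9 and 19.8 and 8.12, 8.77 and 8.68 (-1.20 ± 0.082, adjusted p = 1.03e-17). CARS2 was at 55.3, 57.5 and 58.4 CPM in wt and 30.7, 28.8 and 29 in cis (-0.99 ± 0.049, adjusted p = 1.11e-22). SARS1 (-0.77 ± 0.026, adjusted p = 7.41e-29), TARS2, for threonine (-0.65 ± 0.033, adjusted p = 3.63e-22), and YARS1, for tyrosine (-0.31 ± 0.023, adjusted p = 2.07e-16), were lower as well. TARS3 was higher, at 5.48, 5.1 and 5.87 CPM in wt and 14.2, 12.7 and 13.3 in cis (1.24 ± 0.10, adjusted p = 3.19e-15), as were HARS1 (0.59 ± 0.032, adjusted p = 4.78e-21), VARS1 (0.54 ± 0.029, adjusted p = 3.35e-21) and HARS2 (0.49 ± 0.052, adjusted p = 1.72e-11). The wt and cis libraries overlapped in none of WARS1, WARS2, CARS2 and TARS3. Over the same libraries COL1A1 had a log2 fold change of -5.35 and KRT18 of 4.76; their part in these differences was not tested.

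Relative to cis, cis SSP cells had 1 cytosolic gene higher and 11 lower, and 4 mitochondrial genes higher and 2 lower, 18 of 36 beside 29.1% of 13714 genes (15.8% higher and 13.3% lower). The cytosolic median was -0.42 and the mitochondrial median 0.29, against 0.01 over all genes. VARS1 was at 76.7, 76 and 75.9 CPM in cis SSP, against 185, 182 and 182 in cis (-1.24 ± 0.089, adjusted p = 0.000272). CARS1 was at 124, 110.0 and 105 against 192, 185 and 199 (-0.74 ± 0.10, adjusted p = 0.00296), and GARS1 at 364, 315 and 324 against 574, 552 and 577 (-0.74 ± 0.10, adjusted p = 0.003). QARS1 was the cytosolic gene that was higher, 345, 269 and 275 CPM against 188, 197 and 199 (0.63 ± 0.12, adjusted p = 0.011). WARS2 was at 20.1, 21.2 and 21.3 CPM, against 8.12, 8.77 and 8.68 in cis (1.32 ± 0.10, adjusted p = 0.000341). That was slightly above the wt libraries (18.9, 18.9 and 19.8 CPM), a difference that was not tested. WARS1, by contrast, was lower still than in cis, at 156, 168 and 178 CPM (-0.44 ± 0.10, adjusted p = 0.0206). PARS2 (0.61 ± 0.13, adjusted p = 0.0132) and EARS2 (0.54 ± 0.14, adjusted p = 0.0296) were higher, NARS2 (-0.65 ± 0.11, adjusted p = 0.00604) and AARS2, for alanine (-0.45 ± 0.13, adjusted p = 0.0437), lower. Over the 6 fits that left out 1 library, VARS1, CARS1, GARS1, WARS2 and NARS2 kept their calls in all 6, PARS2 in 4, QARS1 in 3, WARS1 in 2, and EARS2 and AARS2 in 1. Leaving out single libraries gave 7 to 33 called genes. The lowest was without cis replicate 2, with no share over all genes given, and the highest without library 25 (65.4% of 14154 genes, 32.9% higher and 32.5% lower). In that last fit VARS1 had -1.23 ± 0.037 (adjusted p = 7.82e-25), GARS1 -0.79 ± 0.03 (adjusted p = 7.14e-22) and QARS1 0.52 ± 0.032 (adjusted p = 3.76e-16). These p-values may be too small, since the library that deviated was left out. This comparison and that of cis with wt share the cis libraries.

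WARS2 lies on chromosome 1, 119573839 to 119683277 in GRCh37, about 0.51 Mb from PHGDH, the first enzyme of serine synthesis from glucose. PHGDH was at 473 ± 16 CPM (SD, n = 3) in wt, 153 ± 4.55 in cis and 313 ± 68.1 in cis SSP. The other 6 of the 36 genes on chromosome 1 lie 10.41 to 99.98 Mb from it (SARS1 nearest). The position was looked up after these values were seen, and whether WARS2 and PHGDH changed together was not tested.

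**Figure D5:**
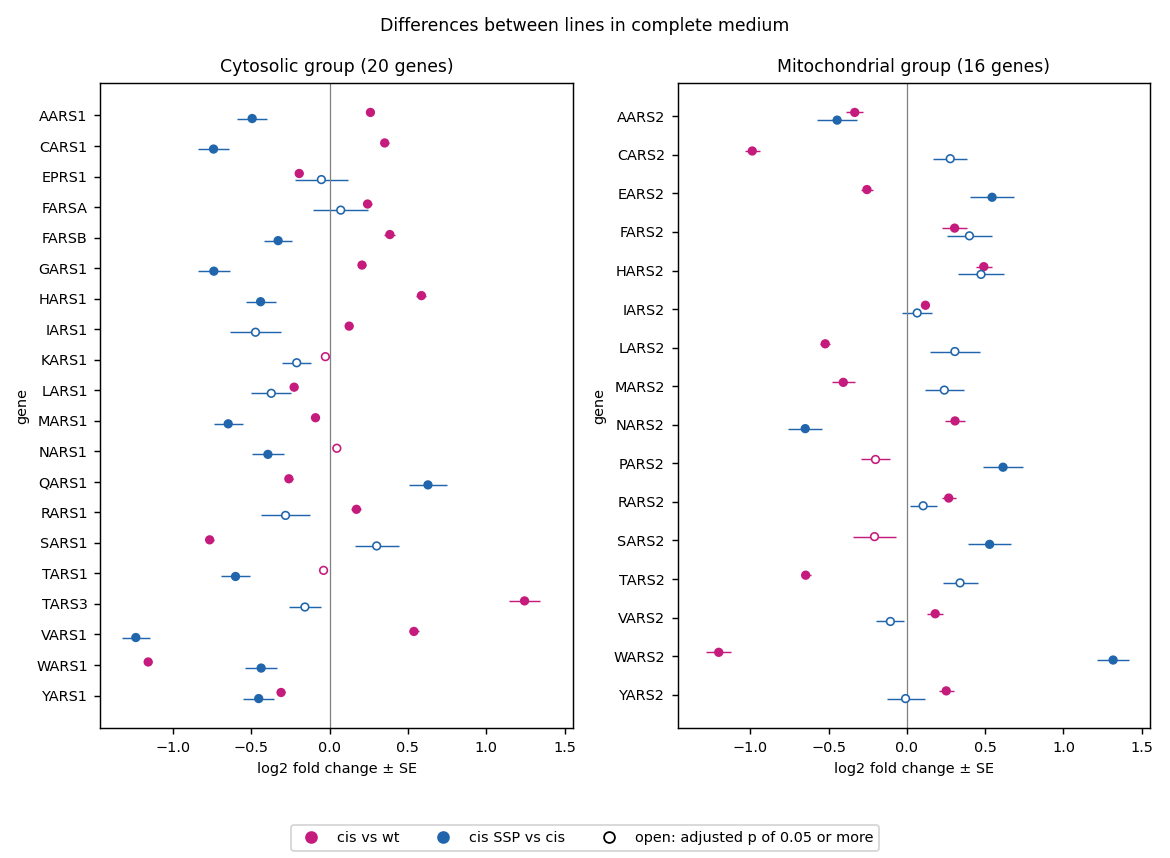
Points give the log2 fold change of cis against wt and of cis SSP against cis in complete medium without drug for each gene, with bars for the SE and open points for an adjusted p of 0.05 or more. TARS3 lies furthest right and WARS1 and WARS2 furthest left in cis against wt, and VARS1 lies furthest left and WARS2 furthest right in cis SSP against cis.

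For 13 amino acids both a cytosolic and a mitochondrial gene were among the 36. On withdrawal of serine and glycine, the cytosolic log2 fold change was above the mitochondrial one in 9 of 13 pairs in wt. It was above in 10 pairs in cis and 11 in cis SSP. The median differences in wt, cis and cis SSP were 0.19, 0.44 and 0.59. Carboplatin in wt cells had 8 of 13 pairs with a median difference of 0.25, and cis against wt 9 of 13 with 0.095. In deprived cis cells the serine pair SARS1 and SARS2 differed by 0.80 and the leucine pair LARS1 and LARS2 by 1.10, while in the methionine pair MARS2 rose more than MARS1 (-0.35). Between cis SSP and cis only 1 of 13 pairs had the cytosolic gene above (median difference -0.68), the asparagine pair. Across the 12 condition means, the log2 levels of cytosolic genes had a median Pearson r of 0.26 with each other (190 pairs), those of mitochondrial genes 0.24 (120 pairs), and genes of different groups -0.12 (320 pairs). The 13 pairs of the same amino acid had a median of -0.011. These values describe 12 points that share lines and normalization, and carry no test.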

How the data were processed

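RNA-seq counts were taken for 36 libraries, 3 for each of 12 conditions, grouped by the labels. The deposited counts were made by the authors from single reads aligned with STAR to GRCh37.p13 (hg19) and counted per gene with HTSeq; DESeq and DESeq2 are also named in the submitters' processing notes. No normalization had been applied to the counts, and the strand setting of the counting was not given in the sources used here. Rows that name no gene (3, with 4.21 to 17.9% of reads on no feature) were left out. Totals on genes were 13074937 to 20441582 per library, and the 36 genes had at least 51 counts in every library.

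Each comparison was fitted on the libraries of its groups with edgeR 4.0.16 in R 4.3.3 (TMM, filterByExpr, robust quasi-likelihood F test, Benjamini-Hochberg adjustment over all genes tested, called at an adjusted p under 0.05). SE is the log2 fold change divided by the root of F. Only the fit of deprivation in cis and its interaction with wt were tried on simulated counts, with the same spread set for every gene. That check does not cover the cis SSP libraries. Alternatives were DESeq2 1.42.0, other scalings, no filter, 1 fit over 36 libraries and leaving out libraries. Genes given full statistics were at most 3 called genes per compartment and direction with the largest change, and in deprivation comparisons also SARS1, SARS2, GARS1, KARS1 and TARS3; of each partner list at most 3 called genes per direction were named. In the fits without libraries 25 or 32, the genes named were chosen after their values were seen. Those fits leave out the libraries that deviated most, so their p-values may be too small. The genes, lists and promoter motifs were chosen with earlier results of these data known. Python 3.11.15 with pandas 2.3.3 and matplotlib 3.10.9 made the summaries and plots. Promoter windows came from RefSeq (GRCh38.p14).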

Additional observations from a re-analysis of the deposited data

Results flagged for a closer look

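The response to deprivation differed between cis and wt cells by the interaction test in 26 of the 36 genes (54.0% of all genes tested), among the largest TARS3 (0.81 on the log2 scale, cis minus wt) and MARS2 (0.81). Between cis SSP and cis it differed in 8 (17.1% of all genes), among them CARS1 (0.78) and IARS2 (0.81), a count that rests on libraries 25 and 32 and was 26 without them (55.4%). The response to carboplatin differed between cis and wt in 28 genes (57.6% of all genes), with the largest differences in HARS1 (-0.84) for the cytosolic and NARS2 (0.67) for the mitochondrial group. Between deprived and complete medium the response to carboplatin differed in 16 genes in wt cells (27.7% of all genes), with SARS1 at -0.53 and CARS2 at 0.45, and in 4 genes in cis cells (12.1%), with WARS1 at -0.30 and NARS2 at -0.31.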

How the results depend on the processing

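No gene of the 36 that was called changed sign under any alternative (0 of 1404 values, and 0 of 2148 with single libraries left out), but counts of calls moved. One fit over 36 libraries called 14 genes for deprivation in wt (26 in the fit of the report), 13 in cis SSP (0), 0 for carboplatin in cis (12), 12 in cis SSP (0), 4 in cis -SG (12), 21 in cis SSP -SG (1) and 28 for cis SSP against cis (18). For the interactions it called 22 for deprivation in cis SSP against cis (8), 18 for carboplatin in cis against wt (28), and 8 in wt (16) and 1 in cis (4) for carboplatin by medium. DESeq2 called 7 for deprivation in cis SSP (0.723% of all genes tested) and 7 for carboplatin in cis (11.5%). It called 7 for carboplatin in cis SSP -SG (3.96%) and 14 for deprivation in cis SSP against cis (18.5%). Without the filter on low counts, 0 were called for carboplatin in cis SSP -SG, 11 for cis SSP against cis, 4 for deprivation in cis SSP against cis and 2 for carboplatin by medium in cis. Without libraries 25 and 32, deprivation gave 19 in cis SSP (35.9% of all genes tested) and 26 in cis SSP against cis (55.4%). The counts from 1 fit and without the filter have no share over all genes beside them and only describe stability. The cause of these changes was not tested.

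Leaving out single libraries gave 6 (without cis carbo replicate 3) to 13 calls for carboplatin in cis, 0 to 19 (without cis SSP replicate 1) in cis SSP, 7 (without cis -SG replicate 2) to 16 in cis -SG, and 0 to 23 (without cis SSP -SG replicate 2) in cis SSP -SG. The range was 7 (without cis replicate 2) to 33 (without cis SSP replicate 1) for cis SSP against cis, 6 to 15 (without cis SSP replicate 1) for deprivation in cis SSP against cis, and 4 to 9 (without cis -SG carbo replicate 1) for carboplatin by medium in cis. The medians moved by more than the spread between libraries in 11 of 22 cases on total counts without TMM, and in 4 of 11 cytosolic medians with GARS1, KARS1 and TARS3 left out, to 0.20 for deprivation in cis, -0.28 and -0.46 for carboplatin in wt and wt -SG, and 0.046 for cis against wt. No paired analysis was possible because the labels hold no replicate numbers, and those used here only name libraries in accession order.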
